A study of Mus musculus with 40 samples.

Results

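A set of 9 profibrotic mediators was followed in mouse kidney RNA: Tgfb1, Tgfb2, Tgfbr1, Ccn1, Ccn2, Thbs1, Inhba, Fn1 and Acta2. They were taken by gene symbol from the 3 deposited count tables, and names whose counts in the shared Control libraries differed between the temporal and the therapy table were to be skipped. All 9 of 9 genes passed that check, out of 55772 names kept in both tables, and all passed the filter on low counts in every comparison. The series gives RNA of kidneys from wild-type C57BL/6 mice, with 4 libraries in each group. The labels give neither the age of the animals nor whether replicates were separate animals, so the p-values speak for these libraries' spread alone, and that spread could be technical. The temporal table holds Control kidneys, for which the labels name no treatment, and kidneys at 6, 24, 48 and 72 h of reperfusion after ischaemia-reperfusion injury (IRI), in which renal blood flow is stopped and then restored. The therapy table holds the same 4 Control libraries, injured kidneys without cells (AKI, labelled 6 h after reperfusion), and injured kidneys of mice given human mesenchymal stromal cells from bone marrow (BM-MSC) or umbilical cord (UC-MSC). The cells were primary, were grown in low-glucose medium with serum and were injected right after reperfusion, and the labels give no time of sampling for these kidneys. The sham table holds unoperated kidneys and kidneys 24 h after surgery without ischaemia, whose treatment tag reads IRI although their description says that there was none.

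TGF-beta is a cytokine that is secreted in a latent complex and must be freed before it can bind its receptor, a pair of type I and type II kinases that pass the signal to SMAD proteins. In kidney, this pathway is known for driving the conversion of interstitial cells to contractile, matrix-making myofibroblasts. Tgfb1 and Tgfb2 encode ligands, Tgfbr1 the type I receptor, and Inhba the subunit of activin A, a related ligand. Thbs1 (thrombospondin 1) is a secreted glycoprotein that can free latent TGF-beta. Ccn1 and Ccn2 are matricellular proteins and targets of the YAP coactivator, and Ccn2 (connective tissue growth factor) is also a TGF-beta target. Fn1 (fibronectin) is an early matrix protein, and Acta2 (smooth muscle alpha-actin) marks smooth muscle and myofibroblasts.

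RefSeq promoters (GRCm38.p6, an older build than the deposited GRCm39 counts) were at hand for 6 of the 9 genes. The 250 bases before the start are shown for Ccn1 and Acta2, whose levels parted after injury, and for Tgfb1, the ligand. Motifs were searched on both strands, and capitals mark their matches. The TEAD motif, bound by the DNA-binding partners of YAP, was GGAATG. The AP-1 motif, bound by the immediate early Fos and Jun proteins, was TGANTCA. The SMAD motif was CAGAC. The CArG box, bound by serum response factor, was searched only in its strict form: CC, then 6 bases of A or T, then GG. Boxes that depart from that form were not marked. The core promoter's TATA box was TATAAA.
Ccn1 (chr3:145649986-145650235, minus strand): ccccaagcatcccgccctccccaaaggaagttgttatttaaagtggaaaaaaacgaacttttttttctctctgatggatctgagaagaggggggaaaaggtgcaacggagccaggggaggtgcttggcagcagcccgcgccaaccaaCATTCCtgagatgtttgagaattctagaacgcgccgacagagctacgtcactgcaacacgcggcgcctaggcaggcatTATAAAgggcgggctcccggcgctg
Acta2 (chr19:34255374-34255623, minus strand): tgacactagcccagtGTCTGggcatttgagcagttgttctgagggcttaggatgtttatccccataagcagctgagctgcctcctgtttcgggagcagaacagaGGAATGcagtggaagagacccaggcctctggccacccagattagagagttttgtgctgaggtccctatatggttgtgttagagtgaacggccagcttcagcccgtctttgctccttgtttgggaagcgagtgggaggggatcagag
Tgfb1 (chr7:25686752-25687001, plus strand): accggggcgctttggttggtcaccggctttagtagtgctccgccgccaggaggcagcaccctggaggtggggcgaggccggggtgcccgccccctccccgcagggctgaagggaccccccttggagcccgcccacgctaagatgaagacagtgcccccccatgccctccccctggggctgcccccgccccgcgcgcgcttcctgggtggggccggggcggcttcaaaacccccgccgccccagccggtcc
The Ccn1 window held 1 TEAD match, 103 to 98 bases before the start, and 1 TATA match, 25 to 20 bases before it. The Acta2 window held 1 TEAD match, 146 to 141 bases before the start, and 1 SMAD match, 235 to 231 bases before it. It also holds ccctatatgg and ccttgtttgg, each 1 base off the strict CArG form and so not marked. Its lack of a CArG match therefore does not show that it has no CArG box. The Tgfb1 window held 0 matches and was 75.2% G and C, against 54.8% for Ccn1, 53.6% for Acta2 and a median of 52.4% over all 32851 promoter windows. Among those windows, 12.6% held the TEAD letters, 6.75% AP-1, 42.2% SMAD, 1.47% a CArG box and 12.4% TATAAA, and the matches do not overlap one another in these windows. A match describes letters only and is not a measured binding site.

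Levels are given as CPM, a library's counts scaled to a common library size after TMM scaling within a table, so levels of different tables and different genes are not compared. Changes are log2 fold changes ± SE from edgeR's quasi-likelihood test over all genes, with a call where the Benjamini-Hochberg adjusted p was under 0.05. Ranges said not to overlap are described gene by gene, and the share of all genes without overlap was not counted. Total counts per library were 13313025 to 17533525 at 6 h and 14938326 to 16338535 in Control, but 4640712 to 5365886 at 72 h, so low genes such as Inhba and Tgfb2 are least precise there. Mitochondrial rRNA took 0.181% to 0.221% of counts in Control, 0.239% to 0.501% at 6 h, 1.58% to 2.01% at 24 h, 2.55% to 4.36% at 48 h and 2.96% to 3.01% at 72 h. The single name Cep85 took 9.74% to 12.9% of counts at 72 h, against at most 0.0135% in Control. The repeated lines of the tables show that Control and 6 h columns were joined as one block, 24, 48 and 72 h as another, and AKI apart from Control, BM-MSC and UC-MSC. Differences across blocks cannot be told apart from how the blocks were made. In whole-kidney RNA, fewer cells of a type and less RNA per cell cannot be told apart either. Defining markers of the kidney were present, but tubule markers moved with injury. The summed level of 8 proximal tubule genes was 10969 to 13685 CPM in temporal Control, 2053 to 6497 at 6 h, 1313 to 2111 at 24 h, 498 to 1544 at 48 h and 564 to 707 at 72 h, with 0 of the 8 at 0 in any library. Its part in the results of the time course was not tested. Some libraries stood apart: library 1 of IRI 6 h exceeded each of the other 3 by at least 2-fold in 4 of 9 mediators (5.31% of all genes). Library 1 of AKI did so in 6 (12.1%), library 4 of BM-MSC in 3 (4.13%) and library 1 of UC-MSC in 0 (4.14%). Library 4 of UC-MSC lay at least 2-fold below each of the others in 2 (7.66%). Mitochondrial rRNA took 0.501% of counts in library 1 of IRI 6 h and 0.239% to 0.252% in its other libraries. It took 2.40% in library 1 of AKI and 0.947% to 1.14% in the others. Its part in the levels of these libraries was not tested.

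At 6 h after reperfusion, 1 TGF-beta ligand, the activin subunit, Thbs1, Ccn1, Fn1 and Acta2 stood above Control. Of the 9 genes, 6 rose and 0 fell, where 18.9% of all 16644 genes tested were called (10.3% higher and 8.53% lower), and their median log2 fold change was 1.49 against -0.07 over all genes. Tgfb1 rose 3.18-fold, Ccn1 3.32-fold, Fn1 2.80-fold and Acta2 4.74-fold, Thbs1 rose 2.20-fold and Inhba 8.53-fold, while Ccn2, Tgfbr1 and Tgfb2 were not called. A fit of Control and IRI 6 h alone called 7 of 9 mediators higher, but also 7445 of 15495 genes, against 3141 of 16644 in the fit of all groups. Library 1 carried part of this. Without it, 4 genes (Tgfb1, Ccn1, Fn1 and Acta2) were called, where 13.4% of all genes were.

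The ligand Tgfb1 stood at 29.9, 28.6, 25.2 and 31.7 CPM in the Control libraries and at 114, 91.2, 86.1 and 75.6 CPM at 6 h. All 6 h libraries lay above all Controls, and the change was 1.67 ± 0.21 (adjusted p = 3.5e-06). The summed level of 8 macrophage markers was 177 to 186 CPM in Control, 322 to 401 at 6 h, 179 to 236 at 24 h, 144 to 174 at 48 h and 111 to 166 at 72 h. That of 5 neutrophil markers was 2.82 to 4.82 CPM in Control, 46.3 to 325 at 6 h, 21.98 to 57.8 at 24 h, 31.5 to 55.2 at 48 h and 18.1 to 29.05 at 72 h, with up to 3 of the 5 at 0 in a library. Their part in the Tgfb1 result was not tested. At 24 h Tgfb1 was at 35.2, 50.2, 47.4 and 47.9 CPM, which was 1.02 ± 0.20 below 6 h (log2 fold change -1.02, adjusted p = 0.00051) and still 0.65 ± 0.20 above Control (adjusted p = 0.013). It was then 30.7 to 58.3 CPM at 48 h (log2 fold change against Control 0.64 ± 0.20, adjusted p = 0.011). The 72 h libraries spanned 25.9 to 47.8 CPM (0.49 ± 0.21, adjusted p = 0.046). Tgfb1 thus had its highest group mean at 6 h among the times sampled, and the 48 and 72 h ranges overlapped Control. Its fall from 6 to 24 h crosses blocks of columns and cannot be told apart from how these were made. The 48 h call was lost without IRI 48 h library 3 (0.47, adjusted p = 0.062). The 72 h call was lost when any of 7 of the 8 libraries compared was left out, with an adjusted p of 0.062 to 0.16 in those fits.

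Fn1 was called higher than Control at 6 h and lower at 72 h. It stood at 65.0, 63.6, 60.7 and 57.7 CPM in Control and at 170.5, 180.4, 182 and 159.6 CPM at 6 h (1.49 ± 0.22, adjusted p = 3.4e-05). By 24 h it was 45.0, 49.6, 68.3 and 56.4 CPM, a log2 fold change of -1.65 ± 0.22 from 6 h (adjusted p = 6.3e-06) and -0.17 ± 0.22 from Control (adjusted p = 0.57). The 24 h and Control ranges overlapped. As for Tgfb1, the fall of Fn1 from 6 to 24 h crosses blocks of columns. At 72 h Fn1 was 33.5, 15.8, 45.1 and 45.7 CPM, all below Control (-0.82 ± 0.22, adjusted p = 0.0036). In a fit of these 2 groups alone it was -0.73 (adjusted p = 0.052) and not called. The step from 48 to 72 h was -0.74 ± 0.23 (adjusted p = 0.054). That step was called without IRI 48 h library 2 or IRI 72 h library 3 or 4 (-0.86 to -0.90, adjusted p of 0.030 to 0.033).

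Acta2 rose and stayed high. Its Control libraries lay within 65.4 to 69.4 CPM, and its 6 h libraries at 714, 210.0, 207 and 148 CPM (2.24 ± 0.34, adjusted p = 4.5e-05). Library 1 was more than 3 times the others at 6 h, and without it the change was 1.48 (adjusted p = 8.3e-06). Acta2 spanned 254 to 390.2 CPM at 24 h (2.31 ± 0.34, adjusted p = 8.2e-06). The 48 h libraries spanned 229 to 469 CPM (2.36 ± 0.34, adjusted p = 4.2e-06), and the 72 h libraries 317 to 378 CPM (2.40 ± 0.34, adjusted p = 3.1e-06). Every injured library lay above every Control library at each time. Steps between neighbouring times from 24 h on were at most 0.05 in log2 fold change (adjusted p of 0.93 or more). The step from 6 to 24 h was 0.06 ± 0.33 (adjusted p = 0.92) but 0.82 (adjusted p = 0.003) without IRI 6 h library 1. The summed level of 9 smooth muscle and pericyte markers (Myh11, Cnn1, Actg2, Des and others) was 231 to 268 CPM in Control, 295 to 428 at 6 h, 334 to 394 at 24 h, 205 to 455 at 48 h and 387 to 426 at 72 h, with at most 1 of the 9 at 0. Its part in the Acta2 result was not tested. Summed fibroblast markers (8 genes) were 351 to 436 CPM in Control, 1471 to 1754 at 6 h, 195 to 449 at 24 h, 566 to 768 at 48 h and 687 to 1130 at 72 h, and their part in the Acta2 and Fn1 results was not tested.

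**Figure D1:**
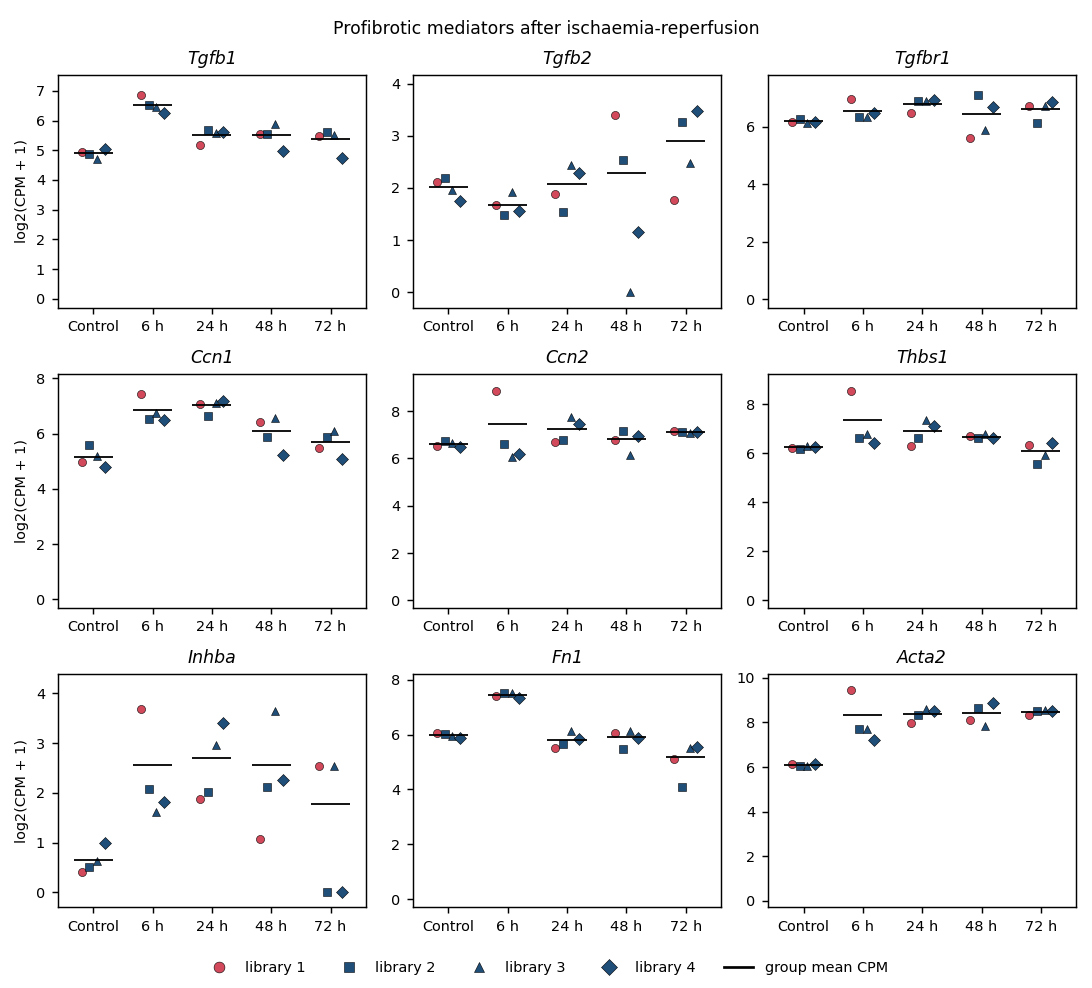
Level of each mediator in the temporal table, as log2(CPM + 1), for the 4 libraries (symbols; library 1 in red) of Control and of each time after reperfusion, with black bars at group means. Acta2 lay at 65.4 to 69.4 CPM in Control and at or above 148 CPM in all injured libraries, Fn1 returned from 159.6 to 182 CPM at 6 h to 45.0 to 68.3 CPM at 24 h, and library 1 at 6 h stands apart for Ccn2, Thbs1, Inhba and Acta2.

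Of the matricellular genes, Ccn1 was called higher at 6, 24 and 48 h. Ccn1 was 26.5 to 46.9 CPM in Control and 174, 92.4, 105 and 89.1 CPM at 6 h (1.73 ± 0.28, adjusted p = 8e-05). It was 135, 99.0, 138 and 146 CPM at 24 h (1.90 ± 0.28, adjusted p = 7.2e-06). It then fell from 24 to 48 h, to 83.9, 57.1, 94.3 and 36.6 CPM (-0.93 ± 0.27, adjusted p = 0.018), and was 0.97 ± 0.27 above Control at 48 h (adjusted p = 0.0048). At 72 h it was 33.2 to 66.9 CPM, overlapping Control (0.55 ± 0.28, adjusted p = 0.098), and was called without IRI 72 h library 4 (0.66, adjusted p = 0.0496). The fall from 24 to 48 h lies within 1 block of columns, and it lost its call without IRI 24 h library 4 (-0.87, adjusted p = 0.050) or IRI 48 h library 4 (-0.72, adjusted p = 0.055).

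Ccn2 was not called at any time. It was 88.8 to 104 CPM in Control, and 462, 97.9, 66.5 and 70.9 CPM at 6 h, where library 1 was high and the other 3 lay within or below the Control range. The change was 0.86 ± 0.42 (adjusted p = 0.18), and -0.29 without that library (adjusted p = 0.55). At 72 h its libraries lay within 135 to 140.4 CPM, all above Control (0.52 ± 0.42, adjusted p = 0.30).

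Thbs1, the activator, showed the same dependence. It was 71.8 to 76.4 CPM in Control and 366, 96.3, 108 and 85.3 CPM at 6 h (1.14 ± 0.34, adjusted p = 0.019), all above Control. Without library 1 the change was 0.38 (adjusted p = 0.30), and the call was also lost without Control library 2 (1.12, adjusted p = 0.052). At 24 h it spanned 77.8 to 163 CPM (0.68 ± 0.33, adjusted p = 0.11). The 48 h libraries spanned 96.0 to 110.4 CPM, all above Control, without a call (0.44 ± 0.33, adjusted p = 0.28). Those of 72 h spanned 46.0 to 83.4 CPM (-0.16 ± 0.34, adjusted p = 0.71). Platelets store thrombospondin 1, and the summed level of 6 platelet markers was 11.6 to 15.6 CPM in Control, 22.6 to 44.4 at 6 h, with library 1 highest, 43.7 to 63.0 at 24 h, 67.6 to 172 at 48 h and 119 to 156 at 72 h. Up to 2 of these 6 markers were at 0 in a temporal library, and their part in the Thbs1 result was not tested.

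Inhba was near the detection limit in Control, at 0.319, 0.422, 0.553 and 0.978 CPM. It was 11.9, 3.24, 2.05 and 2.52 CPM at 6 h (3.09 ± 1.03, adjusted p = 0.038). At 24 h its libraries held 2.67, 3.07, 6.80 and 9.65 CPM (3.27 ± 1.04, adjusted p = 0.014). The 48 h libraries held 1.10, 3.32, 11.5 and 3.82 CPM (3.10 ± 1.03, adjusted p = 0.015). All libraries at these times exceeded all Controls. At 72 h they split into 4.82 and 4.81 CPM in libraries 1 and 3 and 0 in the others (2.07 ± 1.02, adjusted p = 0.091), and Inhba was called there without library 2 (2.45, adjusted p = 0.033) or library 4 (2.44, adjusted p = 0.035). The 6 h call was lost without library 1 (2.18, adjusted p = 0.21), and also without any single Control library or without library 2 (adjusted p of 0.051 to 0.11), and the 48 h call without IRI 48 h library 3 (2.22, adjusted p = 0.077).

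The receptor Tgfbr1 rose at 24 h, from 69.5 to 76.2 CPM in Control to 86.9, 118, 118 and 119.8 CPM (0.62 ± 0.24, adjusted p = 0.042), with no overlap. That call was lost when any of 7 of the 8 libraries was left out (adjusted p of 0.069 to 0.096). At 6, 48 and 72 h its changes were 0.37, 0.26 and 0.44, with adjusted p of 0.13 to 0.38. Its change from 24 to 48 h was -0.36 (adjusted p = 0.32), and -0.68 without IRI 48 h library 2 (adjusted p = 0.035). Tgfb2 was low throughout, at 2.37 to 3.59 CPM in Control and 1.81 to 2.78 CPM at 6 h (-0.48 ± 0.78, adjusted p = 0.76). At 48 h it ranged from 0 to 9.54 CPM and at 72 h from 2.41 to 10.1 CPM (1.08 ± 0.79, adjusted p = 0.26), and its libraries spread widely at both times.

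By count, the mediators called against Control were 5 higher and 0 lower at 24 h, where 42% of all genes were called (21.8% higher and 20.2% lower). They were 4 and 0 at 48 h, where 53.7% of all genes were called (26.9% higher and 26.8% lower), and 2 and 1 at 72 h, where 56.3% were (26.7% higher and 29.6% lower). Their median log2 fold changes were 0.65, 0.44 and 0.52, against 0.05, 0.01 and -0.04 over all genes. All calls at 24 and 48 h were higher, so 5 of 9 stand beside 21.8% and 4 of 9 beside 26.9% of all genes called higher. Columns of 24, 48 and 72 h lie in a block apart from Control, so changes against Control there cannot be told apart from how the blocks were made. Between neighbouring times, 2 fell from 6 to 24 h (Tgfb1 and Fn1, where 28.8% of all genes were called, 14.9% higher and 13.9% lower), 1 fell from 24 to 48 h (Ccn1, where 21.1% were, 9.01% higher and 12.1% lower) and 0 were called from 48 to 72 h by edgeR and 1 by DESeq2 (edgeR called 5.67% of all genes, 2.04% higher and 3.63% lower). Of the 9 mediators, 1 (Fn1) had an unadjusted p under 0.05 in that last comparison. The count at 72 h depended on scaling. DESeq2 called 6 mediators there, 5 higher and 1 lower, and 9756 of 16601 genes, and DESeq2 size factors or upper quartile scaling within edgeR called 5 each, 4 higher and 1 lower, against 2 and 1 with TMM. These settings moved the median of all genes at 72 h by 0.13 to 0.26.

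**Figure D2:**
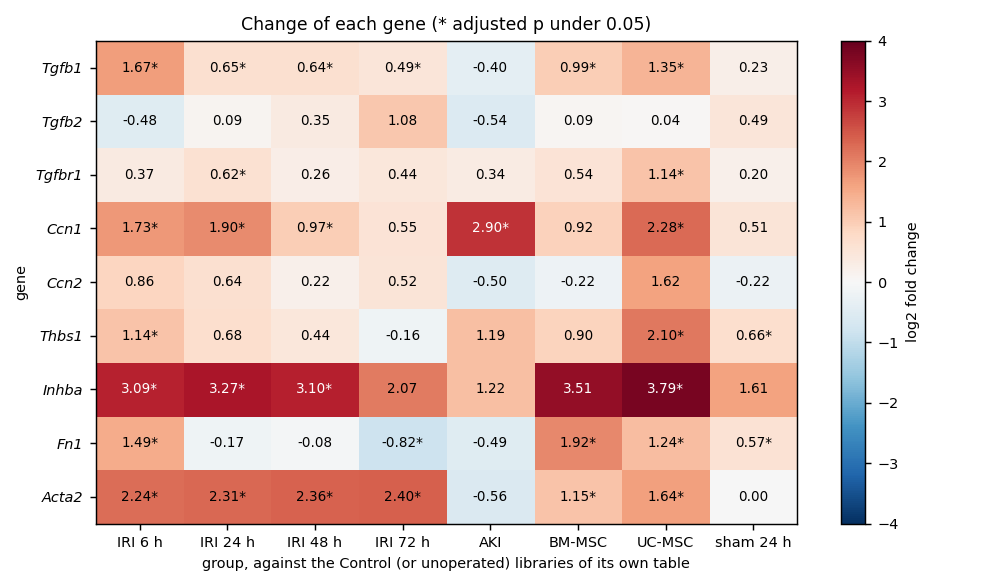
Log2 fold change of each mediator (rows) in 8 groups (columns) against the Control or unoperated libraries of the same table, with red higher, blue lower and a star for an adjusted p under 0.05. Acta2 is starred at all 4 times (2.24 to 2.40), AKI has 1 star (Ccn1, 2.90), BM-MSC has 3 and UC-MSC has 7.

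In sham kidneys at 24 h, Thbs1 and Fn1 were above unoperated kidneys. Of the 9 genes, 2 rose and 0 fell in sham kidneys, where 20.8% of 17781 genes were called (7.7% higher and 13.1% lower). With both directions together, the share called is close to that over all genes. By direction, 2 of 9 higher stand beside 7.7% of all genes called higher. Thbs1 was 43.9, 49.5, 51.4 and 56.0 CPM in unoperated kidneys and 88.2, 84.5, 86.7 and 57.5 CPM after sham surgery (0.66 ± 0.13, adjusted p = 0.0019), with the lowest sham library just above the highest unoperated one. Fn1 was 25.6 to 37.7 CPM and 49.9, 51.9, 31.4 and 45.3 CPM (0.57 ± 0.16, adjusted p = 0.015), with library 3 inside the unoperated range. The Fn1 call was lost without any of 5 of the 8 libraries (sham libraries 1 and 2 and 3 of the unoperated ones; adjusted p of 0.054 to 0.066). Acta2 was 46.7 to 82.2 CPM and 51.1 to 72.4 CPM, a difference of 0.00 ± 0.16 (adjusted p = 0.99). Ccn1 was 0.51 ± 0.24 (adjusted p = 0.16), and 0.70 without sham library 3 (adjusted p = 0.026). Proximal tubule markers summed to 3350 to 4359 CPM in sham and 6029 to 8477 CPM in unoperated kidneys, and macrophage markers to 127 to 156 and 102 to 112 CPM. Mitochondrial rRNA took 0.633% to 0.753% and 0.273% to 0.488% of counts, and the part of these in the sham results was not tested.

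The change at 24 h of IRI minus that of sham surgery, each against its own controls, was 2.33 ± 0.42 for Acta2 (adjusted p = 8.1e-05) and 1.42 ± 0.40 for Ccn1 (adjusted p = 0.0073). These 2 of 9 were called, where 24.3% of 19606 genes were (13.8% higher and 10.5% lower), a share close to the background with both directions together. By direction, 2 of 9 higher stand beside 13.8% of all genes called higher. For Thbs1 the difference was 0.04 ± 0.42 (adjusted p = 0.97), with 0.68 after IRI and 0.66 after sham surgery. For Fn1 it was -0.71 ± 0.30 (adjusted p = 0.082), with -0.17 after IRI and 0.57 after sham surgery, and it was called without sham library 3 or 1 of the unoperated libraries (-0.88 and -0.87, adjusted p of 0.031 and 0.042). The 2 tables come from separate sets of libraries, so this difference also holds any difference between them.

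**Figure D3:**
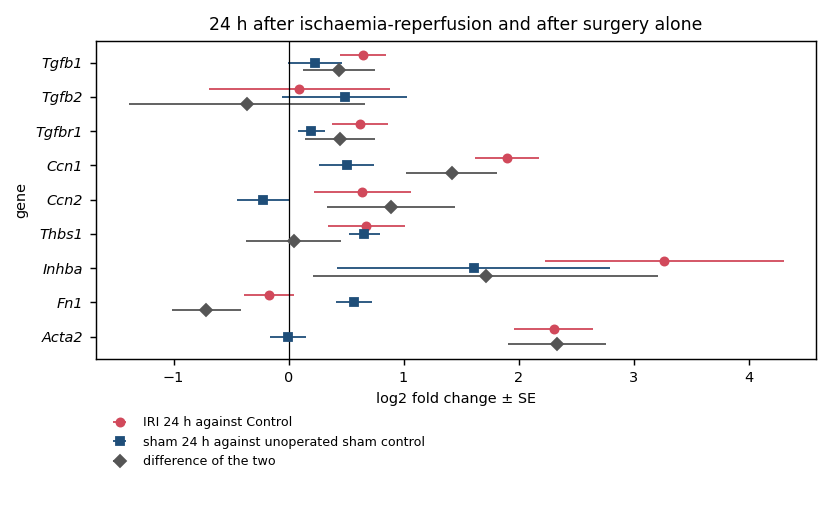
Log2 fold change ± SE of each mediator at 24 h after IRI against Control (red circles), at 24 h after sham surgery against unoperated kidneys (blue squares), and the difference of both (grey diamonds). Acta2 lies at 2.31 after IRI and at 0.00 after sham surgery, whereas Thbs1 lies at 0.68 and 0.66.

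In the therapy table, the AKI kidneys differed from Control in Ccn1 alone among the mediators called. Ccn1 was 24.7 to 43.3 CPM in Control and 579.8, 133, 155 and 89.5 CPM in AKI (2.90 ± 0.49, adjusted p = 0.00041, a 7.45-fold rise), with all AKI libraries above all Controls. That was 1 of 9 genes, where 35% of 16613 genes were called (20% higher and 15.1% lower). AKI and Control columns lie in different blocks, so differences between them cannot be told apart from how the blocks were made. Without library 1 the rise of Ccn1 was 1.94 (adjusted p = 6.1e-05), and 3 of 9 genes were called, where 48% of all genes were.

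Ccn2 then stood out. Its Control libraries lay at 83.0 to 96.4 CPM and its AKI libraries at 204, 21.7, 19.0 and 6.45 CPM. The 3 latter lay far below every Control, and the change was -0.50 ± 0.71 with all libraries (adjusted p = 0.61) and -2.53 without library 1 (adjusted p = 0.00012). Tgfb2 was likewise called lower without it (-1.11, adjusted p = 0.034), at 1.67, 0.897 and 1.42 CPM against 2.22 to 3.31 CPM in Control. Thbs1 was 466 CPM in library 1 and 50.3 to 59.1 CPM in the others, against 66.3 to 71.2 CPM in Control (1.19 ± 0.60, adjusted p = 0.14, and -0.37 without library 1, adjusted p = 0.36). Tgfbr1 was 155 CPM in library 1 and 55.3 to 66.9 CPM in the others.

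Acta2, Fn1 and Tgfb1 did not share that library's rise. Acta2 was 48.6, 49.5, 29.3 and 41.8 CPM in AKI against 59.7 to 64.8 CPM in Control, with no overlap (-0.56 ± 0.26, adjusted p = 0.10). Fn1 was 43.8, 43.4, 26.5 and 48.7 CPM against 53.9 to 60.6 CPM, also with no overlap (-0.49 ± 0.29, adjusted p = 0.20). Tgfb1 was 15.5 to 28.2 CPM against 23.0 to 29.6 CPM (-0.40 ± 0.25, adjusted p = 0.22).

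Markers of cell types moved with the AKI group. The summed level of 6 endothelial genes was 282, 84.7, 96.5 and 81.9 CPM in AKI libraries 1 to 4 against 478 to 522 CPM in Control, and that of 8 fibroblast genes was 129 to 217 against 320 to 407 CPM. Smooth muscle and pericyte genes summed to 165 to 302 against 211 to 251 CPM, and proximal tubule genes to 4634 to 8707 against 10225 to 12492 CPM. None of these lists had a gene at 0 in AKI. Mitochondrial rRNA took 0.947% to 2.40% of counts in AKI, with library 1 highest, and at most 0.452% in the other therapy groups. The part of these in the AKI results was not tested.

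**Figure D4:**
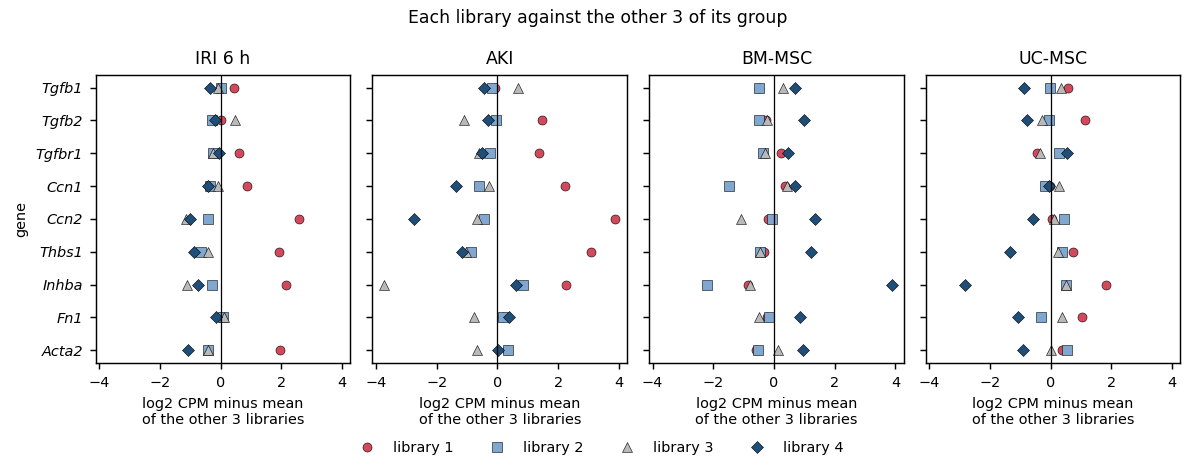
Each library's log2 CPM minus the mean of the other 3 libraries of its group, for the 9 mediators in 4 groups, with library 1 in red. Library 1 lies 2.58 above the others for Ccn2 at IRI 6 h and 3.86 above in AKI, and library 4 of BM-MSC lies 3.89 above for Inhba.

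Kidneys of mice given bone marrow cells had higher Tgfb1, Fn1 and Acta2 than Control. These 3 of 9 rose and 0 fell, where 8.93% of all genes were called (6.57% higher and 2.37% lower). A fit of these 2 groups alone called 7 of 9 higher, and 4970 of 15643 genes against 1484 of 16613. Fn1 was 186, 192, 162 and 327 CPM against 53.9 to 60.6 CPM in Control (1.92 ± 0.30, adjusted p = 0.0019, 3.79-fold). Acta2 was 96.7, 100.4, 141 and 217 CPM against 59.7 to 64.8 CPM (1.15 ± 0.26, adjusted p = 0.013). Tgfb1 was 39.7, 39.4, 60.2 and 73.8 CPM against 23.0 to 29.6 CPM (0.99 ± 0.25, adjusted p = 0.022). In all 3 genes no treated library overlapped Control, and library 4 was the highest. How common such a lack of overlap was over all genes was not counted. Without library 4, only Fn1 was called (1.65, adjusted p = 0.0077), where 3.44% of all genes were, and Acta2 was 0.84 (adjusted p = 0.065). The Tgfb1 call was lost without that library (0.79, adjusted p = 0.11), without BM-MSC library 3 (0.93, adjusted p = 0.058) and without Control library 1, 2 or 3 (adjusted p of 0.056 to 0.078). Inhba reached 20.1 CPM in library 4 and 0.724 to 1.64 CPM in the others (3.51 ± 1.11, adjusted p = 0.058), and was called without library 2 (3.88, adjusted p = 0.036).

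Kidneys of mice given umbilical cord cells differed from Control in 7 of 9 mediators, all higher, where 37.1% of all genes were called (20.4% higher and 16.7% lower). The list's median log2 fold change was 1.62, against 0.08 over all genes. Proximal tubule markers summed to 1655 to 5385 CPM in these kidneys and 10225 to 12492 CPM in Control, 7 distal nephron and collecting duct markers to 799 to 1607 and 4414 to 4747 CPM, and neutrophil markers to 38.1 to 389.9 and 2.60 to 4.51 CPM. In BM-MSC kidneys these sums were 4214 to 9757, 2705 to 4514 and 11.6 to 320.1 CPM. Their part in the results of both cell-treated groups was not tested. Ccn1 was 154, 140.3, 179 and 151 CPM against 24.7 to 43.3 CPM (2.28 ± 0.48, adjusted p = 0.0018). Thbs1 was 406, 332, 310.3 and 137 CPM against 66.3 to 71.2 CPM (2.10 ± 0.62, adjusted p = 0.015). Both genes were well above all Controls, and library 4 was low for Thbs1.

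Acta2 was 227, 248, 189 and 116 CPM (1.64 ± 0.27, adjusted p = 0.00028) and Tgfb1 87.5, 64.8, 78.4 and 41.0 CPM (1.35 ± 0.25, adjusted p = 0.00085). Fn1 was 214, 106, 150.0 and 70.3 CPM (1.24 ± 0.29, adjusted p = 0.004) and Tgfbr1 112, 164, 119 and 189.8 CPM against 63.5 to 70.4 CPM (1.14 ± 0.28, adjusted p = 0.0056). Inhba was 14.0, 7.01, 7.10 and 1.15 CPM against 0.297 to 0.914 CPM (3.79 ± 1.12, adjusted p = 0.014). None of these 5 genes overlapped Control, but the share of all genes without overlap was not counted. Ccn2 was 274, 335, 286 and 199 CPM, also above all Controls, but was not called (1.62 ± 0.72, adjusted p = 0.086).

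Against AKI, BM-MSC kidneys had 3 of 9 mediators higher and 1 lower, where 33.4% of all genes were called (16.3% higher and 17.1% lower). AKI columns form a block apart from those of the cell-treated kidneys, whose time of sampling is not given. Differences from AKI cannot be told apart from block or time of sampling. Fn1 was 2.42 ± 0.30 higher (adjusted p = 5e-05), Acta2 1.71 ± 0.27 (adjusted p = 0.00025) and Tgfb1 1.40 ± 0.25 (adjusted p = 0.00077). Ccn1 was the exception, at 67.5, 25.6, 69.9 and 79.3 CPM, all below the lowest AKI library of 89.5 CPM (-1.98 ± 0.47, adjusted p = 0.0047). Without AKI library 1, all 9 mediators were called, 8 higher and Ccn1 lower (-1.06, adjusted p = 0.0065), where 47.7% of all genes were. In that fit Thbs1 was 1.24 (adjusted p = 0.0054), against -0.28 with the library (adjusted p = 0.74).

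UC-MSC kidneys had 5 of 9 mediators above AKI and 0 below, where 40.5% of all genes were called (20.3% higher and 20.2% lower). As for BM-MSC, this comparison crosses blocks of columns and cannot be told apart from block or time of sampling. Acta2 was 2.20 ± 0.27 higher (adjusted p = 2.8e-05), Ccn2 2.13 ± 0.73 (adjusted p = 0.029), Tgfb1 1.75 ± 0.26 (adjusted p = 0.00011), Fn1 1.73 ± 0.30 (adjusted p = 0.00035) and Tgfbr1 0.80 ± 0.28 (adjusted p = 0.032). Ccn1 was -0.62 ± 0.46 (adjusted p = 0.29). Without AKI library 1, 8 of 9 were called higher, where 53.1% of all genes were, and Ccn2 was 4.11 higher (adjusted p = 2.3e-06). The calls of Tgfbr1 and Ccn2 were lost without AKI library 2, 3 or 4 or without UC-MSC library 2, that of Tgfbr1 also without UC-MSC library 4 and that of Ccn2 without UC-MSC library 3 (adjusted p of 0.050 to 0.098).

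Between the cell sources, 1 of 9 mediators was called, where 20.5% of all genes were (10% higher and 10.4% lower). Ccn1 was 1.37 ± 0.46 higher in UC-MSC than in BM-MSC kidneys (adjusted p = 0.047), and every UC-MSC library (140.3 to 179 CPM) exceeded every BM-MSC library (25.6 to 79.3 CPM). That call was lost when any of the 8 libraries was left out (1.11 to 1.49, adjusted p of 0.056 to 0.13). Ccn2 also did not overlap (199 to 335 against 38.5 to 139 CPM) but was not called (1.84 ± 0.72, adjusted p = 0.082). Fn1 was -0.68 ± 0.29 (adjusted p = 0.10), and -0.995 without UC-MSC library 1 (adjusted p = 0.016). Acta2 was 0.49 ± 0.26 (adjusted p = 0.19), and 0.76 without BM-MSC library 4 (adjusted p = 0.037). Fibroblast markers summed to 1344 to 2643 CPM in BM-MSC and 503 to 1805 CPM in UC-MSC kidneys, and macrophage markers to 257 to 400 and 295 to 505 CPM, against 320 to 407 and 163 to 172 CPM in Control. Their part in these results was not tested. The injected cells are human, the counts are for mouse genes, and the sources used here do not say how reads of human origin were handled.

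**Figure D5:**
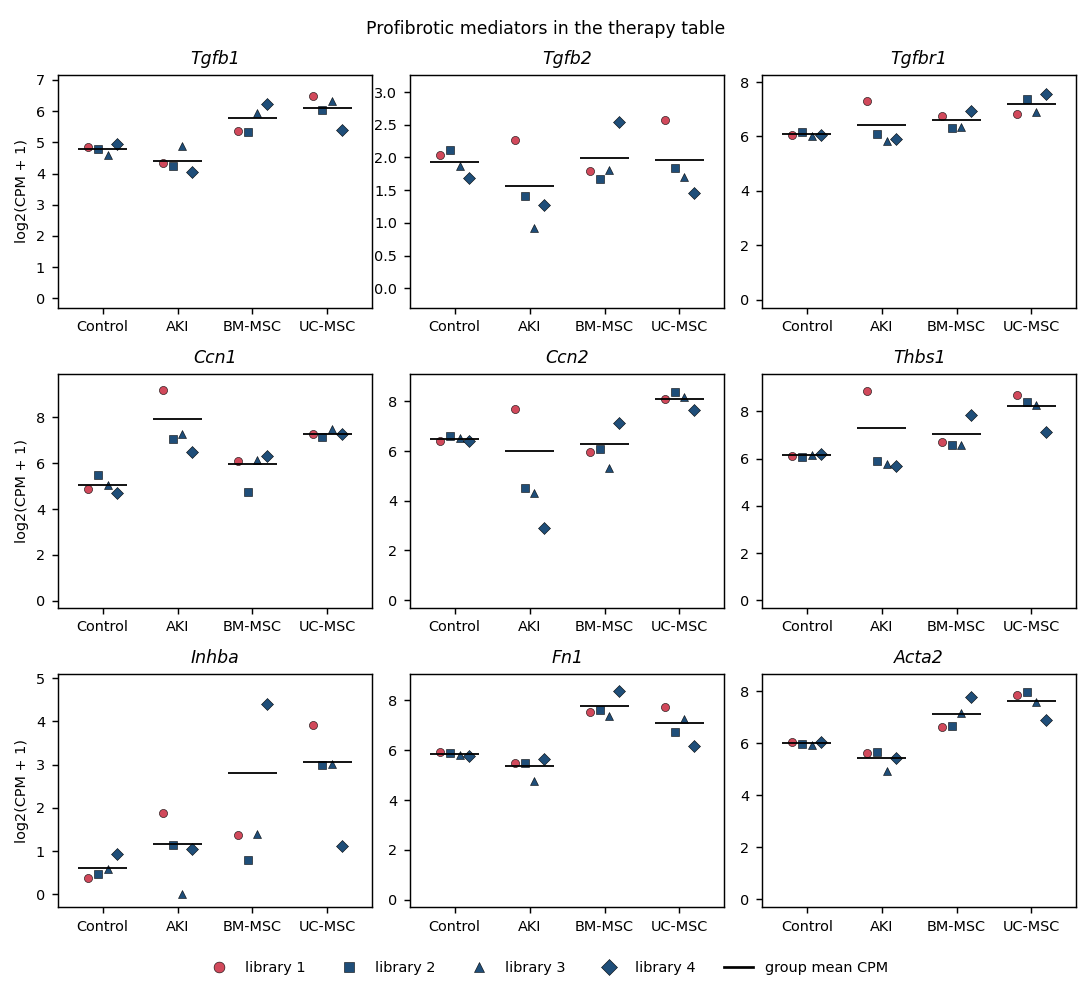
Level of each mediator in the therapy table, as log2(CPM + 1), for the 4 libraries (symbols; library 1 in red) of Control, AKI, BM-MSC and UC-MSC, with black bars at group means. Acta2, Fn1 and Tgfb1 lie above all Controls in both cell-treated groups, whereas in AKI only Ccn1 was called, and library 1 carries Ccn2 (204 CPM), Thbs1 (466 CPM) and Tgfbr1 (155 CPM).

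AKI and IRI 6 h carry the same time label and the same library names, so a comparison of both was added after the data were seen. Their counts differ. Tgfb1 was lower in AKI by a log2 fold change of -2.14 ± 0.24 (adjusted p = 1.6e-07), Fn1 by -2.04 ± 0.28 (adjusted p = 3.9e-06) and Acta2 by -2.87 ± 0.35 (adjusted p = 6.9e-07), and Ccn1 was higher (1.13 ± 0.40, adjusted p = 0.040). That was 4 of 9 mediators, where 21.4% of 18583 genes were called (11.9% higher and 9.51% lower). Without the first library of both groups, Ccn1 was 0.41 (adjusted p = 0.38), Ccn2 was -2.31 (adjusted p = 3.2e-05), and Tgfb1, Fn1 and Acta2 were -2.02, -2.11 and -2.21. With IRI 6 h in place of AKI as the untreated injury, 0 of 9 mediators were called for BM-MSC, where 7 of 18583 genes were, and 0 for UC-MSC, where 782 were. Of these fits, Acta2 gave -1.16 for BM-MSC (adjusted p = 0.22) and -0.67 for UC-MSC (adjusted p = 0.28). The sign of the estimates for Tgfb1 and Acta2 in cell-treated kidneys thus changed with the group taken as untreated injury. For UC-MSC that of Fn1 did too (-0.32, adjusted p = 0.60). None of these negative values was called, so a level below IRI 6 h is not shown. What they show is that the calls against AKI were lost. The comparison with IRI 6 h also joins different tables and blocks of columns.

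Around the mediators, lists of pathway genes were counted in the same fits, in which 18.9% of all genes were called at 6 h, 42% at 24 h, 53.7% at 48 h and 56.3% at 72 h against Control. Higher and lower calls were 10.3% and 8.53% at 6 h and 21.8% and 20.2% at 24 h. They were 26.9% and 26.8% at 48 h and 26.7% and 29.6% at 72 h. A list's share described below as close to that of all genes counts both directions together. Of 11 tested TGF-beta superfamily receptors, 1 rose and 0 fell at 6 h, 0 and 4 at 24 h, 1 and 6 at 48 h and 2 and 6 at 72 h, with medians of -0.29, -0.19, -0.80 and -0.77, against -0.07, 0.05, 0.01 and -0.04 over all genes. At 24 and 48 h the share called was close to that of all genes. Tgfbr2, the type II receptor that pairs with Tgfbr1, was 132 ± 12 CPM (SD, n = 4) in Control, 216 ± 22 at 6 h, 117 ± 11 at 24 h, 41.2 ± 19 at 48 h and 55.7 ± 7.2 at 72 h. It rose by 0.71 ± 0.21 at 6 h (adjusted p = 0.019) and fell by 1.68 at 48 h (adjusted p = 8.9e-07), while Tgfbr1 was 0.26 ± 0.24 at 48 h (adjusted p = 0.38). Tgfbr3, the betaglycan coreceptor, was -1.48 ± 0.36 at 24 h (adjusted p = 0.0019) and -2.14 ± 0.37 at 48 h (adjusted p = 4.6e-05).

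Among 13 tested genes of latency and activation, 3 rose and 2 fell at 6 h, where 18.9% of all genes were called (10.3% higher and 8.53% lower). Without IRI 6 h library 1, 2 rose and 1 fell, where 13.4% of all genes were called. At 48 h 2 rose and 6 fell, where 53.7% of all genes were called, a share close to theirs. Itgb8, an integrin subunit that frees latent TGF-beta, was 223 ± 9.1 CPM in Control and 13.6 ± 4.4 CPM at 72 h (-4.04 ± 0.33, adjusted p = 6.1e-10). Furin, the protease that cuts the TGF-beta precursor, was 428 ± 32 and 49.3 ± 9.3 CPM (-3.12 ± 0.16, adjusted p = 7.7e-13). Itgb3 rose at 6 h (2.41 ± 0.52, adjusted p = 0.0015), as did Lrrc32, which tethers latent TGF-beta to cells (1.72 ± 0.44, adjusted p = 0.0072). In AKI, where 35% of all genes were called, 2 rose and 7 fell, among them the latent TGF-beta binding proteins Ltbp4 (-2.57 ± 0.41, adjusted p = 0.00027) and Ltbp1 (-1.80 ± 0.34, adjusted p = 0.00087).

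Of 15 transcriptional targets of TGF-beta, 7 rose and 0 fell at 6 h, 7 and 1 at 24 h, 7 and 1 at 48 h and 10 and 1 at 72 h, and 7 rose and 3 fell in AKI. In these comparisons 18.9%, 42%, 53.7%, 56.3% and 35% of all genes were called, so the share at 48 h is close to the background with both directions together. By direction, the 7 higher and 1 lower of 15 at 48 h stand beside 26.9% higher and 26.8% lower over all genes. The crosslinking enzyme gene Lox rose by 2.05 ± 0.38 at 6 h (adjusted p = 0.00038) and 2.96 ± 0.39 at 72 h (adjusted p = 1e-06). In UC-MSC against Control 9 rose and 0 fell, where 37.1% of all genes were called. The cell-cycle inhibitor Cdkn1a, a p53 target as well, is on this list and rose by 3.08 ± 0.43 at 6 h (adjusted p = 1.9e-05).

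Of 15 YAP and serum response factor targets, 8 rose and 0 fell at 6 h and 7 and 2 at each of 24, 48 and 72 h. Beside these, 18.9%, 42%, 53.7% and 56.3% of all genes were called. With both directions together, the shares at 48 and 72 h are close to the background. By direction, 26.9% of all genes were higher and 26.8% lower at 48 h, and 26.7% and 29.6% at 72 h. Ankrd1, a YAP target like Ccn1, was highest at 72 h among the group means, at 1.39 ± 0.46 CPM in Control, 10.5 ± 1.2 at 6 h, 19.4 ± 2.0 at 24 h, 45.0 ± 7.2 at 48 h and 66.6 ± 22 at 72 h (5.57 ± 0.29 against Control, adjusted p = 7.8e-13). Of 15 contractile and myofibroblast genes, 5 rose and 0 fell at 6 h, 8 and 2 at 24 h, 7 and 1 at 48 h and 9 and 2 at 72 h. At 48 h this share too is close to that of all genes with both directions together, although 7 of its calls were higher and 1 lower. Tpm2, a tropomyosin, followed Acta2, at 20.2 ± 1.7 CPM in Control and 128 ± 30, 126 ± 64 and 140 ± 22 CPM at 24, 48 and 72 h. In AKI, where 35% of all genes were called, 0 of these 15 rose and 7 fell, with Myl9, the myosin light chain, at -1.67 ± 0.19 (adjusted p = 2.1e-05).

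Among 11 tested ligands other than the mediators, 3 rose at 6 h, and 4 rose and 2 fell at 24 and at 48 h, beside 18.9%, 42% and 53.7% of all genes, and the share at 48 h is close to the last. Gdf15, a stress-induced member of the family, rose by 3.75 ± 0.36 at 24 h (adjusted p = 1.5e-08). Inha, the inhibin alpha chain that competes with activin for Inhba, was 0.643 ± 0.34 CPM in Control, 0.568 ± 0.26 at 6 h and 15.9 ± 9.6 at 72 h (4.60 ± 0.53, adjusted p = 1.3e-07). Bmp7, a kidney ligand known to oppose TGF-beta, was -2.71 ± 0.26 at 72 h (adjusted p = 9.4e-09). Of 13 SMADs and cofactors, 2 rose and 0 fell at 6 h and 3 and 7 at 48 h, beside 18.9% and 53.7% of all genes. The repressor Tgif1 rose by 1.39 ± 0.27 at 6 h (adjusted p = 0.00062) and 2.30 ± 0.28 at 48 h (adjusted p = 2.9e-07). Among 11 tested inhibitors, 2 rose at 6 h, a share close to the 18.9% of all genes: Fstl1, a follistatin-like protein (1.40 ± 0.28, adjusted p = 0.00074), and Pmepa1, a feedback inhibitor (1.05 ± 0.21, adjusted p = 0.00079). Fst (follistatin, the activin antagonist) was 10.3 ± 1.9 CPM in Control and 8.23 ± 1.0 at 6 h, and was not called there.

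Of 18 provisional and fibrotic matrix genes, the list nearest to Fn1, 13 rose and 1 fell at 6 h, 10 and 3 at 24 h, 7 and 1 at 48 h and 9 and 3 at 72 h. Beside these stand 18.9%, 42%, 53.7% and 56.3% of all genes, so the share called at 48 h is near the background with both directions together. At that time 26.9% of all genes were called higher and 26.8% lower. The leaders at 6 h were the fibrinogen chains Fgb (3.94 ± 0.77, adjusted p = 0.00062) and Fgg (3.47 ± 0.60, adjusted p = 0.0002), and Spp1 (osteopontin, 3.42 ± 0.27, adjusted p = 8.7e-09). Spp1 was still 2.09 ± 0.25 higher at 72 h (adjusted p = 2.9e-07), when Fn1 was below Control. In BM-MSC against Control 11 of the 18 rose and 0 fell, where 8.93% of all genes were called, and in UC-MSC 14 and 1, where 37.1% were. Of 4 PDGF genes, 2 rose at 6 h, and 2 rose and 2 fell at each later time.

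These list counts were also taken without IRI 6 h library 1, AKI library 1 or BM-MSC library 4, but not without a UC-MSC library. Without IRI 6 h library 1, 2 contractile genes rose at 6 h in place of 5, 0 receptors in place of 1, and 7 transcriptional targets again, while the share over all genes went from 18.9% to 13.4%. Without AKI library 1, 8 of 13 SMADs and cofactors were lower in AKI in place of 2, and 6 of 15 transcriptional targets were lower in place of 3, while the share of all genes called went from 35% to 48%. Without BM-MSC library 4, 6 of 18 matrix genes rose in place of 11 and 6 of 15 transcriptional targets in place of 7, while the share over all genes went from 8.93% to 3.44%.

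Genes whose log2 CPM followed a mediator most closely over the 20 temporal libraries were sought among 10156 genes, as a description, since these libraries share groups and depth. For Acta2 they were Tpm2 (Pearson r = 0.98), Flna (0.98) and Tpm4 (0.96), with r of 0.90, 0.89 and 0.53 over the 16 therapy libraries. For Ccn2 they were Sgk1 (0.89, and 0.83 in therapy), Txnip (0.85 and 0.70) and Angptl4 (0.81 and 0.53). For Thbs1 they were Lrrc32 (0.90 and 0.80), Wdr1 (0.84 and 0.48) and Srgn (0.82 and 0.89). For Ccn1 they were Rnps1 (0.93 and 0.79), Rras2 (0.92 and 0.78) and Ehd2 (0.91 and 0.44). Tgfb1 was closest to Mcm5 (0.91) but not in the therapy table (0.36), and Fn1 to Trim35 (0.92 and 0.89), while its next gene, Cyp24a1, was 0.92 in one table and -0.42 in the other. Inhba was closest to Pi4k2b (0.86 and 0.34), Tgfbr1 to Tirap (0.85 and 0.63) and Tgfb2 to Etl4 (0.82 and 0.75).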

How the data were processed

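RNA-seq libraries of 40 samples in 44 columns (0 columns unused) were analysed. The deposited values are raw read counts per gene, counted with HTSeq against GRCm39 (mm39) and compared with DESeq2, per the submitters' processing notes; the aligner and strand setting are not given in the sources used here. The temporal, therapy and sham tables hold 258137, 258140 and 56748 lines, and repeated lines were taken once per name and library. In the temporal and therapy tables, 95 names were left out because their Control counts differed (74 names), they stood in 1 table, shared another name's Control counts or conflicted. One model per table, covering every group, was fitted in edgeR 4.0.16 under R 4.3.3, after TMM scaling and filterByExpr, with the quasi-likelihood test (two-sided, adjusted p under 0.05), in 15 comparisons, one of which joined 2 tables. SEs are the absolute log2 fold change divided by the root of F. Log2 CPM for likeness used a prior count of 2 and a mean log2 CPM of at least 3. Promoter sequences came from RefSeq, and gene coordinates in the deposited build were not used here.

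The 9 mediators and all gene lists were chosen with earlier results of these data known. Named genes are all mediators, for each list up to 4 called genes with the largest change and up to 2 not called, direct partners of a mediator, and the 3 genes most like each mediator. Genes left out of the fits, such as Itgb1, Cd36 and Cxcr2, do not count in their lists there. Alternatives were DESeq2 1.42.0, DESeq2 size factors and upper quartile scaling in edgeR, no low-count filter, fits of the compared groups only, a replicate block and leaving out each library. AKI against IRI 6 h, IRI 6 h in place of AKI, leaving out both first libraries, and list counts without 3 of the libraries that stood apart were chosen after seeing the data. The fitting procedure was tested on simulated data. Its pass mark for recovering 4-fold changes was lowered after the joined 24 h contrast fell short of the first mark. That contrast can therefore miss changes of this size. Markers of 10 cell types were summed per library. A gene of the transcriptional target list is not reported here by name.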

Additional observations from a re-analysis of the deposited data

Results flagged for a closer look

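In groups of 4 libraries, 13 of 90 had a library whose gap to the nearest other, divided by the range, exceeded Dixon's 95% critical value. For independent groups of normally distributed values, chance flags about 1 in 20. These groups are CPM of several genes in the same libraries, so 13 of 90 cannot be read against that rate. Most come from 3 libraries. IRI 6 h library 1 was high for Ccn2 (462 CPM, others 66.5 to 97.9), Thbs1 (366 CPM, others 85.3 to 108), Inhba (11.9 CPM, others 2.05 to 3.24) and Acta2 (714 CPM, others 148 to 210.0). AKI library 1 was high for Ccn1 (579.8 CPM, others 89.5 to 155), Ccn2 (204 CPM, others 6.45 to 21.7), Thbs1 (466 CPM, others 50.3 to 59.1) and Tgfbr1 (155 CPM, others 55.3 to 66.9). BM-MSC library 4 was high for Inhba (20.1 CPM, others 0.724 to 1.64), Thbs1 (226 CPM, others 94.7 to 102) and Tgfb2 (4.85 CPM, others 2.17 to 2.49). Sham 24 h library 4 was low for Thbs1 (57.5 CPM, others 84.5 to 88.2), and IRI 24 h library 1 was low for Tgfbr1 (86.9 CPM, others 118 to 119.8).

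Groups under the same contrast differed in 7 values, each by a test of the difference itself. The change at 24 h was larger after IRI than after sham surgery for Ccn1 (1.42 on the log2 scale) and Acta2 (2.33). Ccn1 was higher in UC-MSC than in BM-MSC kidneys (1.37), a call lost when any single library compared was left out (adjusted p of 0.056 to 0.13). AKI differed from IRI 6 h, although both are labelled 6 h after reperfusion, in Tgfb1 (-2.14), Fn1 (-2.04), Acta2 (-2.87) and Ccn1 (1.13). The Ccn1 call between AKI and IRI 6 h was lost when the first library of each was left out.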

How the results depend on the processing

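Of 1952 alternative values of single mediators, 1818 kept their direction and side of the threshold (a change of sign among values never called counts as kept), 68 lost their call, 59 gained one and 7 reversed. With IRI 6 h in place of AKI, the reversed values were -0.74 (Tgfb1) and -1.16 (Acta2) for BM-MSC and -0.39 (Tgfb1), -0.32 (Fn1) and -0.67 (Acta2) for UC-MSC, with 0 mediators called in either. Leaving out a library reversed Ccn2 from 6 to 24 h (0.93 without IRI 6 h library 1, and from -0.49 up over all libraries left out) and Thbs1 in BM-MSC against AKI (1.24 without AKI library 1, and from -0.70 up).

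Counts of mediators called moved by over 1.5 times in these settings. At 72 h against Control, 3 became 6 with DESeq2, 5 with its size factors and 5 with upper quartile scaling. From 48 to 72 h, 0 became 1 with DESeq2 and 1 without the low-count filter. Fits of the compared groups only gave 2 for AKI against Control, 7 for BM-MSC against Control, 3 for UC-MSC against AKI and 3 for UC-MSC against BM-MSC. UC-MSC against BM-MSC also gave 0 with upper quartile scaling and 2 without the filter, and IRI 24 h beyond sham gave 4 without the filter. Counts over all genes moved as far in fits of the compared groups only: 3141 became 7445 at 6 h, 6985 became 11558 at 24 h, 4799 became 8299 from 6 to 24 h, 944 became 24 from 48 to 72 h, 1484 became 4970 for BM-MSC against Control, and 5548 became 3637 for BM-MSC and 6725 became 3535 for UC-MSC against AKI. DESeq2 gave 1704 from 48 to 72 h and 2390 for BM-MSC against Control, and the replicate block 500.0 from 48 to 72 h. The cause was not tested.

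Leaving out 1 library at a time gave 4 to 6 at 6 h, 4 to 5 at 24 h, 2 to 4 at 48 h, 2 to 5 at 72 h, 2 to 4 from 6 to 24 h, 0 to 2 from 24 to 48 h and 0 to 1 from 48 to 72 h. It gave 1 to 3 for AKI, 1 to 4 for BM-MSC and 7 to 7 for UC-MSC against Control, 4 to 9 for BM-MSC and 3 to 8 for UC-MSC against AKI, 0 to 1 between the cell sources, 1 to 3 for sham and 2 to 3 beyond sham.

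Another scaling moved the median of all genes by over 0.1, by at most 0.26 (72 h, upper quartile). It moved the share of higher among called genes from 47.4% to 57.6% at 72 h, 57.0% to 45.1% in AKI against Control, 37.0% to 47.8% in sham (all upper quartile), by 11.1 points in BM-MSC against AKI (upper quartile, from 48.9%), from 42.7% to 54.4% from 24 to 48 h (DESeq2 size factors) and from 73.5% to 62.6% in BM-MSC against Control (DESeq2).

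With the replicate number as a block, Inhba at 6 h (3.02, adjusted p = 0.064), Tgfbr1 at 24 h (0.62, adjusted p = 0.057) and Tgfb1 at 72 h (0.46, adjusted p = 0.066) lost their calls, and Inhba in UC-MSC against AKI gained one (2.94, adjusted p = 0.042). Deviations of same-numbered libraries correlated at -0.50 (BM-MSC and UC-MSC, library 4) to 0.22 (AKI and BM-MSC, library 3). These values gave no sign that the numbers pair the samples. They cannot exclude that the numbers mark a shared batch or origin. No paired analysis was possible for the sham comparisons because the unoperated columns carry no sample number. Depth at 48 and 72 h limits Inhba and Tgfb2.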
